A study of Mus musculus with 24 samples.

Results

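The 10 genes described here were chosen by name for what they are known to do: Nr3c1, which encodes the glucocorticoid receptor (GR), 7 genes known to respond to glucocorticoids or to work beside the receptor (Fkbp5, Tsc22d3, Zbtb16, Sgk1, Glul, Cebpb, and Cebpd), and the metallothioneins Mt1 and Mt2. All 10 are among the 56941 genes listed in the deposited values. The rule that picks them uses names and no measured value. Both these genes and the related lists below were chosen with earlier results of these data known, however. Counts of genes called beside the share of all genes are therefore descriptions, not tests. The values come from C2C12 cells, a mouse myoblast line with the genotype ChR2::tdTomato, a blue-light-gated cation channel joined to a red fluorescent protein, which the controls carry as well. The cells were differentiated on fibrin hydrogels in medium with horse serum and IGF-1 and were exercised with light for 60 min a day at 1, 4, or 10 Hz, or were left without stimulation (Control). The 4 conditions have 6 libraries each, described by the study as biological replicates, and the comparisons ask how RNA differed with the frequency of daily light stimulation. The study saw spontaneous twitching in all conditions, also without stimulation. Discussing 10 Hz in its other experiment, with shorter sessions, it proposes that incomplete contraction cycles may have worn the fibers less. As an alternative it names that tissues at 10 Hz may have tired sooner. Effects of light and of contraction cannot be told apart in these comparisons. The cells are 1 engineered cell line, so the replicates are cultures, not animals, and neither the labels nor the methods name an added glucocorticoid or metal.

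Glucocorticoids enter the cell and bind GR, which waits in the cytoplasm with heat shock proteins and co-chaperones and then moves to the nucleus to switch target genes on or off. In skeletal muscle, the hormone and its receptor are known for turning on genes of protein breakdown, insulin resistance, and glutamine release, and several targets, such as Sgk1 and Cebpd, also answer to calcium, cytokines, and growth factors. Metallothioneins are small cysteine-rich proteins that bind zinc and copper. Their genes are switched on by the zinc sensor MTF1 and also by glucocorticoids and oxidative stress.

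The libraries held between 8052369 and 18159144 estimated counts each. Myotube markers (Ckm, Acta1, Myh3, Tnnt3, Actn2, Des, Ttn, Mb, Casq2, and Ryr1) summed to between 10064 and 18871 transcripts per 1000000 (TPM), while the labels call the cells myoblasts. Of markers of other cell types, fibroblast genes summed to 376 to 789 TPM, macrophage genes to 55.7 to 102.8 TPM, fat cell genes to 24.6 to 61.7 TPM, and endothelial genes to at most 0.961 TPM. In 4 libraries, 1 Hz replicates 4 and 6 and 4 Hz replicates 3 and 6, genes of the mitochondrial genome took 3.97% to 8.90% of the counts, above the highest control at 2.72%. Calls of the 10 genes that change without these libraries are given both ways. In bulk RNA, fewer cells of a type and less RNA per cell cannot be told apart.

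At 4 Hz, the kinase gene Sgk1 and the transcription factor gene Cebpd rose most among the 10 genes, to levels 119.6% and 95.1% above the controls. Tsc22d3, Glul, Nr3c1, and Mt1 rose by less, and Fkbp5 fell. Of the 9 genes that passed the filter, 7 were called at 4 Hz (6 higher, 1 lower), where 51.4% of all 13315 genes tested were called. At 1 Hz, 6 of the 9 were called (5 higher, 1 lower), where 37.3% of all genes were called. At 10 Hz, 0 of the 9 were called by edgeR, and no member had an adjusted p under 0.05 with DESeq2 either, where edgeR called 0.0376% of all genes (0.015% higher and 0.0225% lower), DESeq2 called 48 genes, and 1074 of the 13315 had an unadjusted p under 0.05. The ranges of the 10 Hz libraries and the controls overlapped for all 9, while they did not overlap for 1.64% of all genes. A gene was called at a Benjamini-Hochberg adjusted p under 0.05 over all genes tested, from edgeR's quasi-likelihood test on counts scaled by TMM, and every adjusted p of a gene below is from that test unless another is named. At 1 Hz the 9 genes had a median log2(fold change) of 0.23, beside 0.04 over all genes tested. The medians were 0.26 beside 0.06 for 4 Hz and 0.09 beside 0.01 for 10 Hz. The 3 comparisons share their control libraries. With the added threshold of the study, an absolute log2(fold change) over 0.5, Sgk1 and Cebpd were the 2 genes left at both 1 Hz (background 14.9%) and 4 Hz (background 25.1%).

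**Figure D1:**
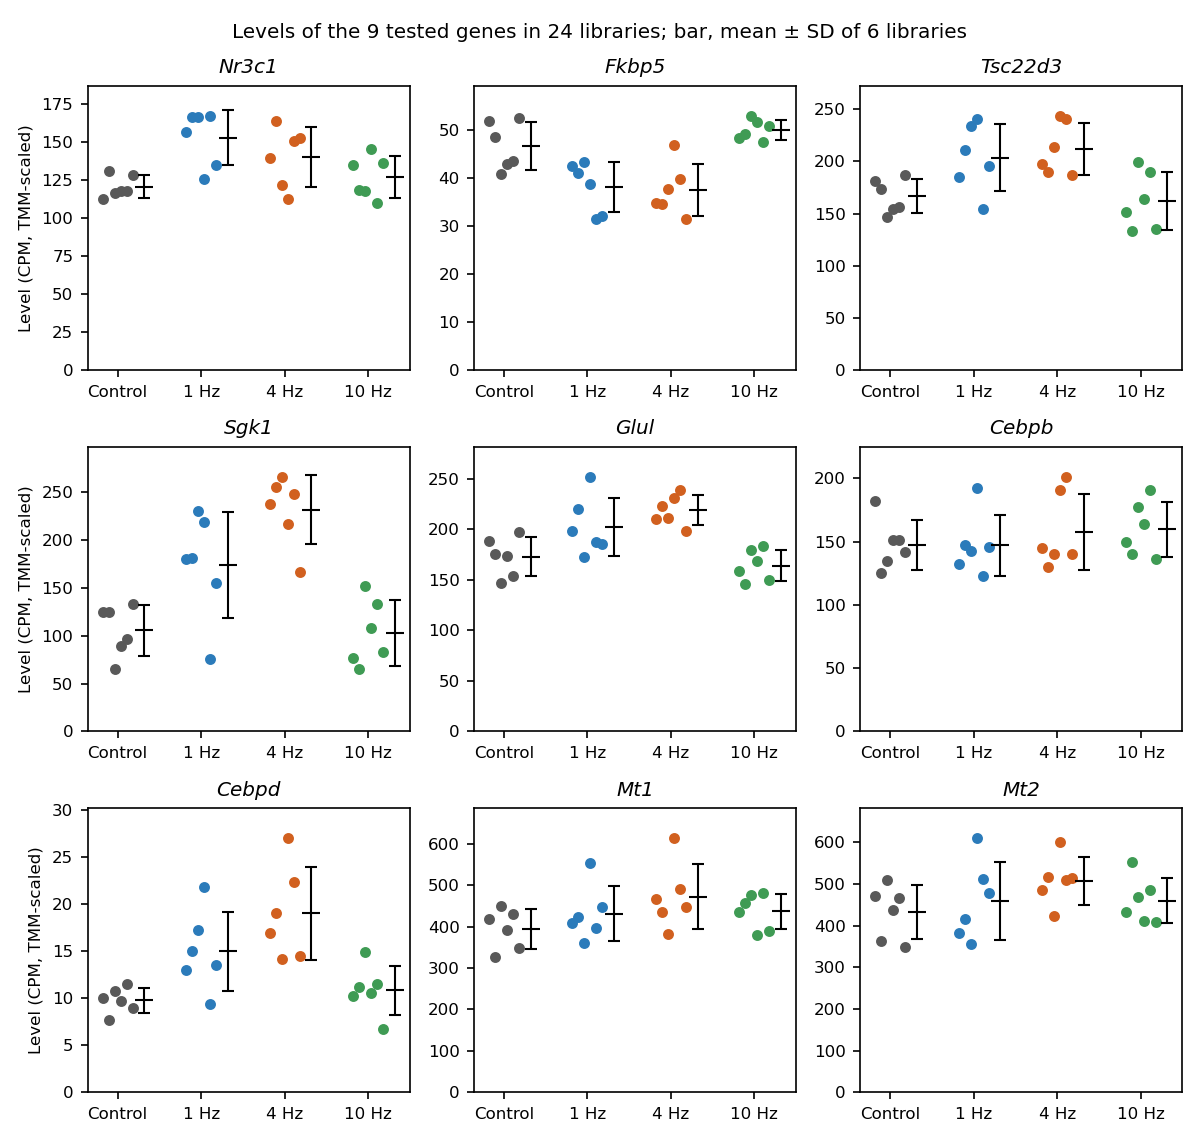
Level of each of the 9 tested genes in counts per 1000000 (CPM, TMM-scaled, linear axis from 0) over 24 libraries, with the 6 libraries of each condition as points and the mean ± SD beside them. Sgk1, Glul, and Cebpd have all 6 of the 4 Hz libraries above the highest control (27.6% of all genes had ranges that did not overlap), and the lowest 1 Hz point of Sgk1 is replicate 5, at 75.3 CPM.

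Levels between genes can be compared only per length, in TPM. In the controls the order was Mt2 (2076 ± 337 TPM, SD, n = 6), Mt1 (1683 ± 234), Cebpb (169 ± 20.1), Tsc22d3 (143 ± 11.4), Glul (128 ± 12.2), Sgk1 (70.7 ± 16.3), Nr3c1 (31.8 ± 2.78), Fkbp5 (24.7 ± 3.98), Cebpd (4.23 ± 0.646), and Zbtb16 (0.00987 ± 0.0156). The ranges over the controls overlapped between Mt2 and Mt1, between Cebpb and Tsc22d3, between Tsc22d3 and Glul, and between Nr3c1 and Fkbp5. Within every control library, though, Mt2 stood above Mt1, Tsc22d3 above Glul, and Nr3c1 above Fkbp5. Cebpb and Tsc22d3 changed order in control replicate 2 (140 against 146 TPM). Mt2 and Mt1 ranked 65 and 98 of all genes by mean control TPM, and together they held 0.376% ± 0.0568 of the TPM in the controls (n = 6). The 2 metallothionein genes thus stood about an order of magnitude above the next member, and Cebpd, which rose most beside Sgk1, was the lowest of those tested.

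Nr3c1 (ENSMUSG00000024431, chromosome 18, 39543598 to 39652474, minus strand of GRCm39) encodes the receptor itself. Its level ran from 113 to 131 CPM in the controls with a median of 118, from 126 to 167 at 1 Hz with a median of 162, from 113 to 164 at 4 Hz with a median of 145, and from 110.0 to 146 at 10 Hz with a median of 127. The lowest 1 Hz library lay inside the range of the controls, so the groups overlapped at every frequency. The log2(fold change) was 0.34 (SE 0.0907, adjusted p = 0.00489) at 1 Hz, 0.22 (SE 0.0908, adjusted p = 0.0484) at 4 Hz, and 0.08 (95% interval -0.11 to 0.26) at 10 Hz. Leaving out any 1 of 9 libraries ended the 4 Hz call (control replicates 1, 3, 4, and 5 and 4 Hz replicates 1, 2, 3, 5, and 6), with adjusted p from 0.0599 to 0.135, and the gene was not called with DESeq2 (adjusted p = 0.0871). At 1 Hz the call remained without each library in turn and without the 4 libraries of high mitochondrial share (0.45, adjusted p = 3.41e-04).

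Fkbp5 (ENSMUSG00000024222, chromosome 17, 28618058 to 28737521, minus strand) encodes FKBP51, a co-chaperone that lowers the receptor's affinity for hormone and is itself a strong target of GR, so that it is often read as a gauge of receptor activity. It was the only one of the 9 genes that fell. Levels ran from 41.0 to 52.6 CPM in the controls with a median of 46.2, from 31.5 to 43.5 at 1 Hz with a median of 40.0, from 31.6 to 47.0 at 4 Hz with a median of 36.4, and from 47.6 to 52.9 at 10 Hz with a median of 50.1. Every 10 Hz library thus lay above every 1 Hz library and every 4 Hz library, while both lower frequencies overlapped the controls. Among all genes, ranges did not overlap for 7.7% between 10 and 1 Hz and for 18.9% between 10 and 4 Hz. The level fell by 18.3% at 1 Hz (log2 -0.29, SE 0.0941, adjusted p = 0.0171) and by 19.6% at 4 Hz (log2 -0.32, SE 0.0947, adjusted p = 0.00742). At 10 Hz the log2(fold change) was 0.10 (95% interval -0.09 to 0.29). Both calls remained without each library in turn, but without the 4 libraries of high mitochondrial share the 1 Hz value was -0.23 with an adjusted p of 0.0784.

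Tsc22d3 (ENSMUSG00000031431, chromosome X, 139440091 to 139501408, minus strand) encodes GILZ, a leucine zipper protein that is induced by glucocorticoids and holds back inflammatory transcription factors. Its level ran from 146 to 187 CPM in the controls with a median of 165, from 154 to 241 at 1 Hz with a median of 203, from 187 to 243 at 4 Hz with a median of 205, and from 133 to 199.8 at 10 Hz with a median of 158. All but 1 of the 4 Hz libraries lay above the highest control, and the 10 Hz libraries covered the whole range of the controls. Tsc22d3 rose by 22.1% at 1 Hz (log2 0.29, SE 0.109, adjusted p = 0.0399) and by 27.1% at 4 Hz (log2 0.35, SE 0.109, adjusted p = 0.0102), with -0.04 at 10 Hz. Leaving out any 1 of 7 libraries ended the 1 Hz call (control replicates 3, 4, and 5 and 1 Hz replicates 2, 3, 4, and 6), with adjusted p from 0.0641 to 0.135, as did leaving out the 4 libraries of high mitochondrial share (0.24, adjusted p = 0.132). The call at 4 Hz remained without each library.

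Sgk1 (ENSMUSG00000019970, chromosome 10, 21758083 to 21875802, plus strand) encodes the serum- and glucocorticoid-regulated kinase, a relative of AKT that acts on ion transport and FOXO factors. Its level ran from 65.1 to 133 CPM in the controls with a median of 110.5, from 75.3 to 230.4 at 1 Hz with a median of 181, from 167 to 265 at 4 Hz with a median of 243, and from 65.4 to 152 at 10 Hz with a median of 95.1. All 6 of the 4 Hz libraries stood above every control and every 10 Hz library. At 1 Hz, replicate 5 lay near the bottom of the controls and the other 5 lay above all of them. The log2(fold change) was 1.13 at 4 Hz (SE 0.237, adjusted p = 4.93e-04) and 0.72 at 1 Hz (SE 0.235, adjusted p = 0.0208), and 97.0% of all genes tested had a smaller absolute change at 4 Hz. The interval at 10 Hz was wide, from -0.53 to 0.45 around a log2(fold change) of -0.04. Leaving out 1 Hz replicate 3 or 1 Hz replicate 4 ended the 1 Hz call (adjusted p = 0.0555 and 0.0622), as did leaving out the 4 libraries of high mitochondrial share (0.67, adjusted p = 0.0810), where the value at 4 Hz was 1.16 (adjusted p = 0.00225).

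Sgk1 is shown with sequence because its known link to the receptor runs through a GR binding site. Of the 6 Sgk1 start sites in the RefSeq promoter table (GRCm39), 1 has the full GR site, AGAACA and TGTTCT with any 3 bases between them, in the 250 bases before it, at chr10:21869539-21869788 on the plus strand. The motif is in capitals.
Sgk1: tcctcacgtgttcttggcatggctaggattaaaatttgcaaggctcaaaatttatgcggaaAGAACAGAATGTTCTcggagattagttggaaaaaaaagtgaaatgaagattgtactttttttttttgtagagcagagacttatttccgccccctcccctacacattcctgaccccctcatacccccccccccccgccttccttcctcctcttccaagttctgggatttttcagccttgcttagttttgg
The match begins 189 bases before the start site. Of 32851 windows of the same length in the table, 3 hold this full site (0.00913%), searched on both strands. The single arm of the site, AGAACA, is in 16.1% of the windows, and every full site holds it on each strand, so those counts overlap. The same window holds another AGAACA on the minus strand, 242 bases before the start. AGAACA was also found in the windows of 2 other Sgk1 start sites and in 1 window of Tsc22d3. For Fkbp5, Glul, Cebpb, Mt1, and Mt2 these letters are not in the windows, which says nothing about sites elsewhere. The table held 7 of the 10 genes, in 14 windows, without Nr3c1, Zbtb16, and Cebpd. No binding was measured, so the match describes letters only.

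Glul (ENSMUSG00000026473, chromosome 1, 153775690 to 153785469, plus strand) encodes glutamine synthetase, which makes glutamine from glutamate and ammonia and is induced by glucocorticoids in muscle. Its level ran from 147 to 198 CPM in the controls with a median of 175, from 173 to 251 at 1 Hz with a median of 192, from 199 to 238 at 4 Hz with a median of 217, and from 146 to 183 at 10 Hz with a median of 163. The 4 Hz libraries stood just above the highest control (198.6 against 197.6 CPM) and well above every 10 Hz library. Glul rose by 26.5% at 4 Hz (log2 0.34, SE 0.0870, adjusted p = 0.00223) and by 17.2% at 1 Hz (log2 0.23, SE 0.0869, adjusted p = 0.0398), with -0.07 at 10 Hz. The 1 Hz call depended on each of 6 libraries and was lost without any 1 of them (control replicates 2, 3, 4, and 5 and 1 Hz replicates 2 and 4), with adjusted p from 0.0528 to 0.196. Without the 4 libraries of high mitochondrial share it was lost too (0.18, adjusted p = 0.113). In 12 libraries the estimated count of Glul was off a whole number by more than 0.01, so salmon divided some reads between Glul and other genes, which occurred in 0 libraries for the other members.

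Zbtb16 (ENSMUSG00000066687, chromosome 9, 48563141 to 48748664, minus strand) encodes the zinc finger factor PLZF, a strong glucocorticoid target in many tissues. It was not detectable at this depth in most libraries. In all 24 libraries it had 5 counts, which fell in 4 libraries with at most 2 counts in 1, and it did not pass the filter. A floor of 3 counts per library corresponds to between 0.175 and 0.418 CPM, so levels under that could not be told from 0. These floors cover counting error only.

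Cebpb and Cebpd encode transcription factors of the C/EBP family, which follow cytokine and glucocorticoid signals and act early in fat cell and acute phase programmes. Cebpd (ENSMUSG00000071637, chromosome 16, 15705150 to 15708895, plus strand) ran from 7.70 to 11.5 CPM in the controls with a median of 9.88, from 9.39 to 21.8 at 1 Hz with a median of 14.2, from 14.2 to 27.0 at 4 Hz with a median of 17.99, and from 6.77 to 14.9 at 10 Hz with a median of 10.9. Every 4 Hz library was above every control, and the lowest 1 Hz library was again replicate 5. The log2(fold change) was 0.96 at 4 Hz (SE 0.183, adjusted p = 1.33e-04), 0.63 at 1 Hz (SE 0.183, adjusted p = 0.00947), and 0.15 at 10 Hz (95% interval -0.24 to 0.54). These calls remained without each library in turn, with values from 0.81 to 1.04 at 4 Hz and from 0.45 to 0.73 at 1 Hz. The counts behind Cebpd were the smallest of the tested members, from 80 to 357 per library.

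Cebpb (ENSMUSG00000056501, chromosome 2, 167530835 to 167532338, plus strand) was not called in any of the 6 comparisons. Its level ran from 125 to 182 CPM in the controls with a median of 146, from 122 to 193 at 1 Hz with a median of 144, from 130.0 to 201 at 4 Hz with a median of 142, and from 136 to 191 at 10 Hz with a median of 157. The 4 groups covered nearly the same range. At 4 Hz the log2(fold change) was 0.10 with a 95% interval from -0.15 to 0.34, so a change as large as that of Cebpd lies outside the interval. At 1 Hz the interval was -0.24 to 0.24, and at 10 Hz it was -0.13 to 0.35.

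The metallothionein genes lie in 1 cluster on chromosome 8, with 5502 bases between the end of Mt2 (ENSMUSG00000031762, 94898819 to 94900207) and the start of Mt1 (ENSMUSG00000031765, 94905710 to 94906955), both on the plus strand. Mt1 ran from 327 to 449 CPM in the controls with a median of 405, from 361 to 552 at 1 Hz with a median of 415, from 381 to 612 at 4 Hz with a median of 456, and from 380.2 to 479.9 at 10 Hz with a median of 446. Mt2 ran from 349 to 509 CPM in the controls with a median of 452, from 355 to 609 at 1 Hz with a median of 446, from 422 to 599.9 at 4 Hz with a median of 511, and from 408 to 552 at 10 Hz with a median of 450.5. For both genes, all 4 conditions overlapped. Mt1 rose by 19.7% at 4 Hz (log2 0.26, SE 0.106, adjusted p = 0.0423), and the call was lost without any 1 of 7 libraries (control replicates 2, 4, 5, and 6 and 4 Hz replicates 1, 4, and 5), with adjusted p from 0.0508 to 0.239, and the gene was not called with DESeq2 (adjusted p = 0.0597). Mt2 had a log2(fold change) of 0.23 (SE 0.116, adjusted p = 0.0957) at 4 Hz, which missed the threshold. At 1 Hz the values were 0.13 for Mt1 and 0.08 for Mt2, and at 10 Hz they were 0.15 and 0.09, none of them called. In the controls, the ratio of Mt1 to Mt2 in TPM was 0.814 ± 0.0381 (SD, n = 6). The exercised groups had ratios of 0.847 ± 0.0941 (1 Hz), 0.825 ± 0.0616 (4 Hz), and 0.847 ± 0.0620 (10 Hz), and the ratio was below 1 in every library, with a highest value of 0.948.

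The sequences before the RefSeq starts of the metallothionein genes are shown for the core of the metal response element, TGCACNC or TGCGCNC, which MTF1 binds. The windows are from the RefSeq promoter table (GRCm39), the 250 bases before the start, printed up to the first base that GENCODE marks as untranslated region, with matches on either strand in capitals. The window of Mt1 begins at 94905467 and is printed as chr8:94905467-94905709. The window of Mt2 begins at 94898996 and is printed as chr8:94898996-94899131. Both are on the plus strand.
Mt1: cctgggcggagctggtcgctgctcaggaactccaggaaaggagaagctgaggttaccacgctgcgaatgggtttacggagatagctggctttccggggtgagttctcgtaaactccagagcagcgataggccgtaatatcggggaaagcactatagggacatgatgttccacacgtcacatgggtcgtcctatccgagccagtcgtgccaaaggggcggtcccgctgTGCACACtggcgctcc
Mt2: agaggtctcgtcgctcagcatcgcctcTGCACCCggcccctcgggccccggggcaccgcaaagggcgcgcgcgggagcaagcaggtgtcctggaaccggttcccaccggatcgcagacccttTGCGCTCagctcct
The window of Mt1 held 1 match, 23 bases before the start. That of Mt2 held 3, at 223, 128, and 50 bases, the last of them in the part not printed. The Mt2 window, which ends at 94899245, lies inside the GENCODE span of the gene, which begins at 94898819. Matches in these windows say nothing about sites elsewhere, so the counts do not give the number of elements of either gene. A match was in 21.4% of the 32851 windows and 3 or more matches were in 1.26%, and Glul had 1 match as well. The searches for TTGCGCAA or TTGCATCA (C/EBP) and TTCNNNGAA (STAT) found the first in none of the members' windows (0.956% of all windows) and the second in 1 window each of Sgk1 and Tsc22d3 (7.02% of all windows).

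**Figure D2:**
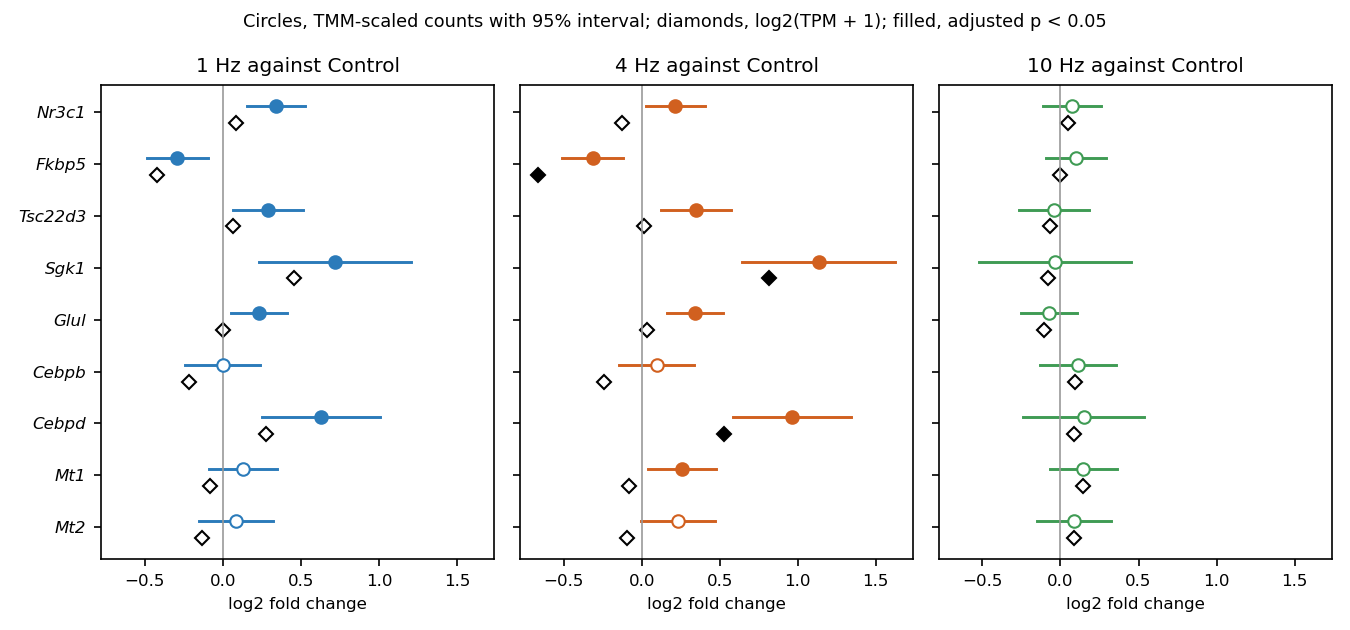
log2(fold change) of the 9 tested genes at 1, 4, and 10 Hz against Control. Circles with 95% intervals are from TMM-scaled counts and diamonds from log2(TPM + 1), and filled symbols have an adjusted p under 0.05. At 4 Hz, Fkbp5, Sgk1, and Cebpd are filled on both scales, and the diamonds of Nr3c1, Cebpb, Mt1, and Mt2 lie on the other side of 0 from their circles.

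The direction of the smaller changes depended on the scale. TMM scaling sets libraries against each other by the bulk of genes, while TPM divides by everything counted in the library. With limma on log2(TPM + 1), all genes had a median log2(fold change) of -0.14 for 1 Hz (0.04 with TMM), -0.21 for 4 Hz (0.06), and -0.01 for 10 Hz (0.01). On that scale, on which fold changes of low genes are understated, 3 members were called at 4 Hz, namely Sgk1 (0.82, adjusted p = 0.00283), Cebpd (0.53, adjusted p = 0.00863), and Fkbp5 (-0.67, adjusted p = 0.00185), and 0 at 1 Hz. Of the 13422 genes tested on it, 41.7% were called at 4 Hz and 25.4% at 1 Hz. The values for Nr3c1, Mt1, Mt2, and Cebpb at 4 Hz were -0.13, -0.08, -0.10, and -0.24, opposite in sign to those with TMM, and Tsc22d3 and Glul were at 0.02 and 0.04. Relative to the median of all genes on the same scale, the 4 Hz values were 1.03 for Sgk1, 0.74 for Cebpd, -0.46 for Fkbp5, 0.24 for Glul, 0.23 for Tsc22d3, and 0.13 for Mt1. The short RNA Bc1 had 4698 to 9111 TPM among control libraries, 4636 to 18789 for 1 Hz, 3679 to 29079 for 4 Hz, and 6307 to 8839 for 10 Hz, and its part in the shift was not tested.

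The frequencies were also compared with each other. Between 10 and 4 Hz, 5 of the 9 genes were called, with Fkbp5 higher at 10 Hz and Tsc22d3, Sgk1, Glul, and Cebpd lower, where 46.3% of all genes were called (21.9% higher and 24.4% lower, and 21.2% with the threshold on fold change, which Sgk1 and Cebpd passed). The log2(fold change) of 10 Hz minus 4 Hz was 0.41 for Fkbp5 (adjusted p = 0.00113), -0.39 for Tsc22d3 (adjusted p = 0.00576), -1.17 for Sgk1 (adjusted p = 5.27e-04), -0.41 for Glul (adjusted p = 5.16e-04), and -0.82 for Cebpd (adjusted p = 0.00105). All 5 remained without each library in turn. The groups did not overlap for Fkbp5, Sgk1, and Glul, 3 of 9 genes beside 18.9% of all genes. Nr3c1 (-0.14), Mt1 (-0.11), Mt2 (-0.14), and Cebpb (0.02) were not called.

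Between 10 and 1 Hz, 5 of the 9 genes were called, where 27.9% of all genes were called. Fkbp5 was higher at 10 Hz (0.39, adjusted p = 0.00341), and Nr3c1 (-0.26, adjusted p = 0.0319), Tsc22d3 (-0.33, adjusted p = 0.0274), Sgk1 (-0.75, adjusted p = 0.0221), and Glul (-0.30, adjusted p = 0.0115) were lower. Cebpd missed the threshold (-0.48, adjusted p = 0.0542). The count was 2 or 3 without 1 Hz replicate 3, 1 Hz replicate 4, or 10 Hz replicates 1, 2, or 6. It was 3 without the 4 libraries of high mitochondrial share, where Nr3c1, Fkbp5, and Glul were called beside 19.2% of all genes.

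Between 4 and 1 Hz, 0 of the 9 genes were called by edgeR, where 0% of all genes were called and 1465 of the 13315 had an unadjusted p under 0.05. DESeq2 called 17 of all genes and 0 members. The largest difference was that of Sgk1, 0.42 higher at 4 Hz with a 95% interval from -0.07 to 0.90, and Cebpd was 0.34 higher, with an interval from -0.03 to 0.71. These intervals do not show that both frequencies act alike. Without the 4 libraries of high mitochondrial share, which all belong to these frequencies, Cebpd was called, 0.62 higher at 4 Hz (adjusted p = 0.0408), as were 1408 of the 13434 genes tested in that fit (10.5%).

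Libraries with much Tsc22d3 also had much Sgk1, least clearly among those of 4 Hz. Over 24 libraries, Pearson r of log2 CPM between them was 0.91 and Spearman rho was 0.89, with r at 0.89 without the 2 libraries farthest in Tsc22d3 and 0.85 over deviations from the condition means. Within the 6 libraries of a condition, r was 0.95 for Control, 0.92 for 1 Hz, 0.30 for 4 Hz, and 0.96 for 10 Hz. Both genes of a pair come from the same library and share its scaling, so these are descriptions without a test.

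Fkbp5 went with Tsc22d3 within the controls, 1 Hz, and 4 Hz, and not over all libraries pooled. Over all 24 libraries r was -0.22 and rho was -0.25, while over deviations from the condition means r was 0.64. Within conditions r was 0.996 for Control, 0.63 for 1 Hz, 0.92 for 4 Hz, and 0.19 for 10 Hz (6 libraries each). In the plot of both genes, the 4 Hz libraries partly overlap the controls on each axis, and the 10 Hz libraries are spread along Tsc22d3 at nearly 1 level of Fkbp5. With Sgk1, r of Fkbp5 was -0.33 over 24 libraries and 0.60 over deviations. Mt1 and Mt2 had an r of 0.86 (rho 0.80), 0.82 without the 2 farthest libraries and 0.84 over deviations. Mt1 was nearer to Cebpd (0.70) and Cebpb (0.66) than to Sgk1 (0.24), Tsc22d3 (0.37), or Glul (0.40). Nr3c1 had negative r with Mt1 (-0.31, and -0.68 over deviations) and Cebpb (-0.44, and -0.54 over deviations). Within conditions, r of Nr3c1 with Mt1 was -0.91 for Control, -0.88 for 1 Hz, -0.38 for 4 Hz, and -0.93 for 10 Hz.

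**Figure D3:**
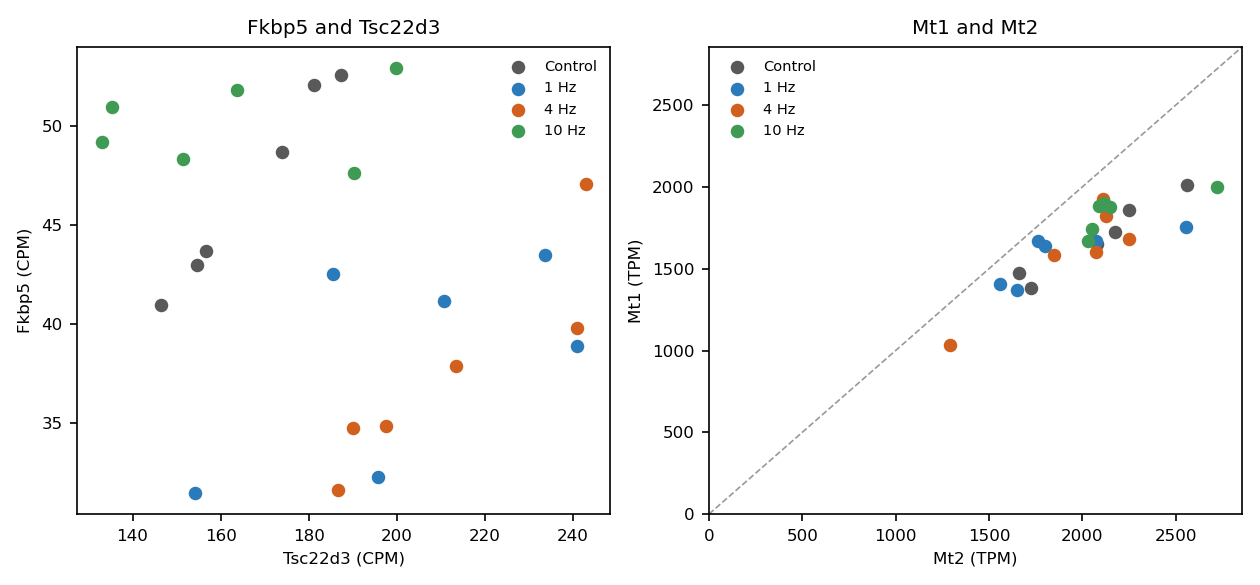
Left, Fkbp5 against Tsc22d3 in CPM, and right, Mt1 against Mt2 in TPM with the line of equal level dashed, 1 point per library (24 in all) coloured by condition. The left axes do not start at 0. Fkbp5 rises with Tsc22d3 among the controls, and all 24 libraries lie below the line of equal Mt1 and Mt2.

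**Figure D4:**
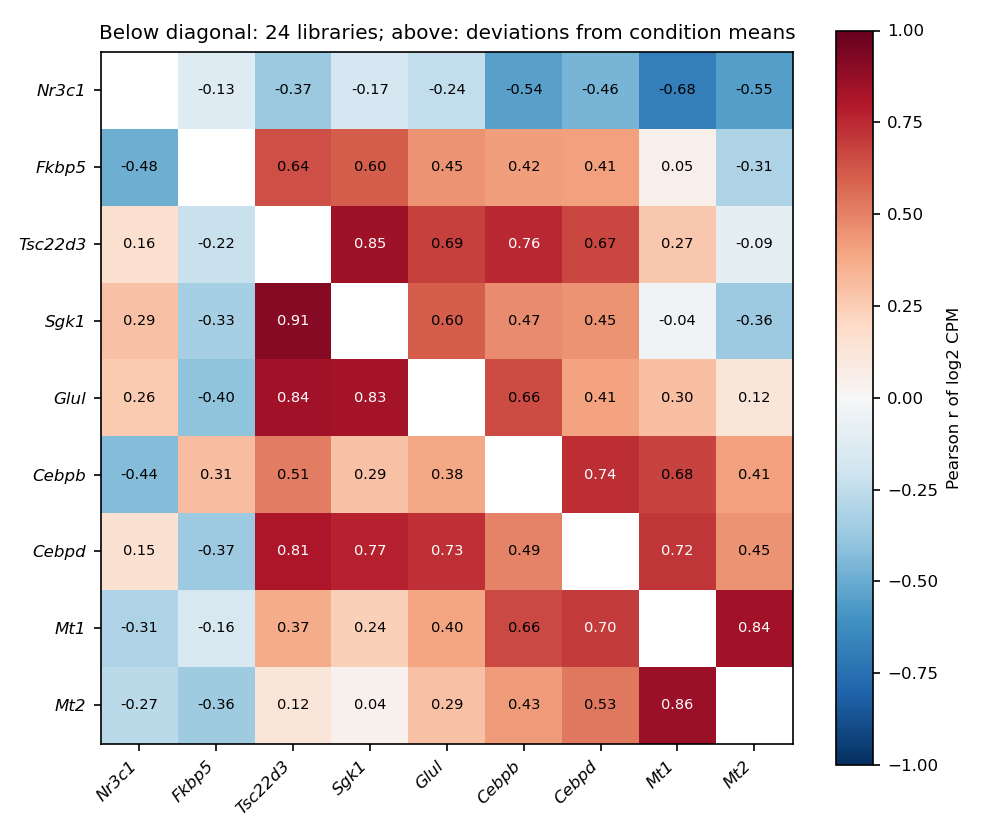
Pearson r of log2 CPM between the 9 tested genes, over 24 libraries below the diagonal and over deviations from the condition means above it (colour scale from -1 to 1). Tsc22d3, Sgk1, Glul, and Cebpd form a block of r from 0.73 to 0.91 below the diagonal, and the r of Fkbp5 with each of them is negative below and positive above.

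By the same measure over 24 libraries, the non-member genes nearest to Fkbp5 among 11822 candidates were Sema4c (r = 0.90), Rtkn (0.87), and Iffo1 (0.87). Those nearest to Tsc22d3 were Ier5 (0.96), Rsrp1 (0.95), and Pnrc1 (0.95), and their log2(fold change) at 4 Hz was 1.35, 1.02, and 0.74. Those nearest to Cebpd were Tmem250-ps (0.92), 2310039H08Rik (0.91), and Pck2 (0.91). Those nearest to Mt1 were Ube2s (0.91), Sars (0.90), and Gnl1 (0.89), none of which was called at 1 or 4 Hz.

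Other known GR target genes were read from a list of 25, of which 20 passed the filter and Mstn, Lcn2, Sult1a1, Pck1, and Tat did not. At 4 Hz, 13 were higher and 3 lower, with a median log2(fold change) of 0.56, and at 1 Hz 12 were higher and 3 lower, with a median of 0.43. Among all genes, 27.5% were called higher and 23.9% lower at 4 Hz, and 19.2% and 18.1% at 1 Hz. Foxo1 and Foxo3, factors that drive atrophy genes, rose from 31.0 ± 2.86 to 57.8 ± 4.57 CPM and from 89.3 ± 7.51 to 147 ± 14.7 CPM at 4 Hz (log2 0.90, adjusted p = 8.02e-09, and 0.72, adjusted p = 7.28e-08). Errfi1, an inhibitor of the EGF receptor, rose by 1.02 at 1 Hz (adjusted p = 5.95e-07), where Foxo3 rose by 0.57 (adjusted p = 4.24e-06). The lipase inhibitor Angptl4 fell at 4 Hz (-1.04, adjusted p = 8.95e-05), as did the mTORC1 inhibitor Ddit4 (-0.61, adjusted p = 0.00834). Ddit4 also fell at 1 Hz (-0.75, adjusted p = 0.00289) with the ubiquitin ligase Trim63 (-0.44, adjusted p = 0.00253). Trim63 was lower at 4 Hz too (-0.29, adjusted p = 0.0267). At 10 Hz Trim63 was at -0.54, not called (adjusted p = 0.0781). Its 10 Hz libraries all lay below every control, where 1.64% of all genes had ranges that did not overlap. At 10 Hz, 0 of the 20 were called by edgeR, 2 by DESeq2, and 1 by edgeR without control replicate 2 or 5. Of 10 alternative settings other than omission of 1 library, 4 gave a count above 0, at most 2. Between 10 and 4 Hz, 12 were lower and 2 higher at 10 Hz, beside 24.4% and 21.9% of all genes. On the TPM scale, 7 of the list were called at 1 Hz, beside 25.4% of all genes. The list does not move as 1 block, since targets in both directions passed the test.

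In the list of the receptor complex and steroid handling, 18 of 19 genes were tested, with 0 higher and 5 lower at 1 Hz (27.8%, beside 37.3% of all genes) and 2 higher and 7 lower at 4 Hz (50.0%, beside 51.4%). Hsd11b1, the enzyme that regenerates active glucocorticoid from its inert form, rose from 23.8 ± 2.66 to 40.1 ± 7.36 CPM at 4 Hz (log2 0.75, adjusted p = 7.94e-04), and H6pd, which supplies its cofactor, rose by 0.33 (adjusted p = 0.0184). At 1 Hz Hsd11b1 was at 0.30 (adjusted p = 0.173). The co-chaperones of the receptor Ptges3 and Stip1 fell at 4 Hz by 0.46 and 0.26 on the log2 scale (adjusted p = 2.36e-05 and 0.00573), and Stip1 fell at 1 Hz by 0.30 (adjusted p = 0.00361). The opposite enzyme, Hsd11b2, did not pass the filter. The count at 1 Hz was 2 without the 4 libraries of high mitochondrial share, where 30.8% of all genes were called. It was 2 or 3 without control replicates 3 or 5 or 1 Hz replicates 2 or 4.

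In the list of metal handling, 24 of 27 genes were tested, with 5 higher and 3 lower at 1 Hz (33.3%, beside 37.3% of all genes) and 8 higher and 5 lower at 4 Hz (54.2%, beside 51.4%). Mtf1, the zinc sensor that switches on metallothionein genes, fell from 57.2 ± 2.56 CPM to 43.0 ± 4.10 at 1 Hz and 39.6 ± 3.10 at 4 Hz (log2 -0.41, adjusted p = 3.95e-04, and -0.53, adjusted p = 1.44e-05). The zinc exporter Slc30a1, another target of MTF1, rose by 0.68 at 1 Hz (adjusted p = 2.93e-05) and by 0.56 at 4 Hz (adjusted p = 1.58e-04). Slc31a2, a copper transporter, rose as well (0.39, adjusted p = 0.00766, and 0.54, adjusted p = 3.14e-04), and the zinc transporter Slc30a6 fell (-0.42, adjusted p = 0.00303, and -0.34, adjusted p = 0.00932). The other metallothionein genes, Mt3 and Mt4, did not pass the filter. On the TPM scale, the list had 3 genes called at 1 Hz and 6 at 4 Hz, beside 25.4% and 41.7% of all genes. The count at 1 Hz was 5 without 1 Hz replicate 4 and without all 4 libraries of high mitochondrial share (30.8% of all genes in the latter fit). The count at 4 Hz was 8 without 4 Hz replicate 4.

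In the list of the C/EBP family and cytokine-STAT3 genes, 19 of 20 were tested, with 6 higher and 3 lower at 1 Hz (47.4%, beside 37.3% of all genes) and 9 higher and 3 lower at 4 Hz (63.2%, beside 51.4%). The cytokine gene Il6 rose from 2.80 ± 0.874 CPM to 12.2 ± 3.78 at 1 Hz and 16.4 ± 4.86 at 4 Hz (log2 2.11, adjusted p = 1.12e-05, and 2.52, adjusted p = 5.29e-07). Cebpg rose by 0.53 and 0.44 (adjusted p = 1.96e-05 and 8.93e-05), while Cebpa fell by 0.38 and 0.52 (adjusted p = 0.00375 and 1.33e-04) and Cebpz by 0.25 and 0.51 (adjusted p = 0.00467 and 9.42e-07). Without Cebpz, which shares the symbol only, the C/EBP genes named here still went in different directions. Cebpd and Cebpg were higher, Cebpa was lower, and Cebpb was not called.

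In the list of glutamine metabolism, 15 of 15 genes were tested, with 1 higher and 3 lower at 1 Hz (26.7%, beside 37.3% of all genes) and 0 higher and 6 lower at 4 Hz (40.0%, beside 51.4%), while Glul rose at both. Ctps1, which uses glutamine to make CTP, fell from 107 ± 5.80 CPM to 76.0 ± 3.72 at 1 Hz and 64.8 ± 6.57 at 4 Hz (log2 -0.49, adjusted p = 5.56e-06, and -0.72, adjusted p = 1.22e-08). Psat1 and the transaminase Got1 changed at 1 Hz (-0.20, adjusted p = 0.0224, and 0.21, adjusted p = 0.0181). With upper-quartile scaling the count at 4 Hz was 3, and at 1 Hz it was 2 with no filter on low counts or without control replicate 5.

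Of the partners of SGK1, 11 of 12 genes were tested, with 1 higher and 1 lower at both frequencies (18.2%, beside 37.3% and 51.4% of all genes). Ndrg1, whose protein SGK1 phosphorylates, rose by 0.37 at 1 Hz and 0.45 at 4 Hz (adjusted p = 9.27e-04 and 7.29e-05). Pdpk1, the kinase that activates SGK1, fell by 0.36 and 0.50 (adjusted p = 0.00793 and 2.85e-04). The count at 4 Hz was 4 on the TPM scale, without 4 Hz replicate 6, and without all 4 libraries of high mitochondrial share, which also gave 1 at 1 Hz. Without those 4 libraries, 52.6% of all genes were called at 4 Hz and 30.8% at 1 Hz.

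**Figure D5:**
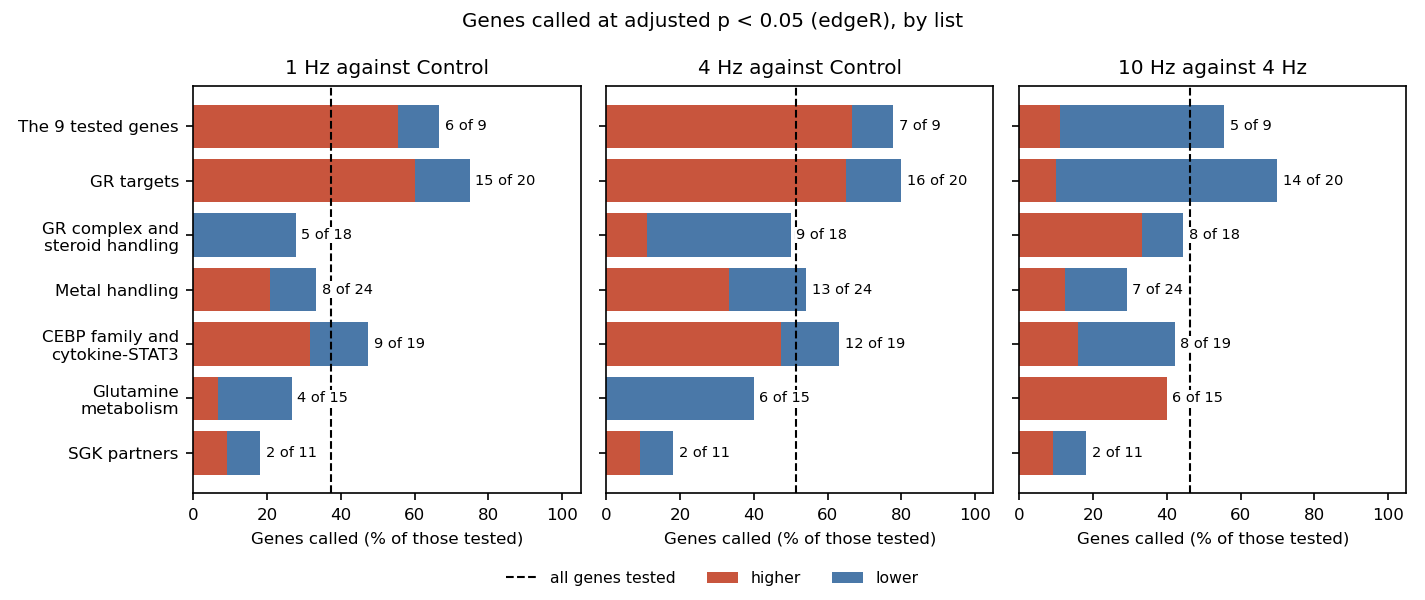
Share of tested genes called at an adjusted p under 0.05 (horizontal axis, %) in the 9 tested genes and 6 related lists, for 1 Hz and 4 Hz against Control and 10 Hz against 4 Hz, higher in red and lower in blue, with the share among all 13315 genes tested as a dashed line. The 9 genes and the GR targets reach past the dashed line in these 3 comparisons, and the SGK partners end before it.

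Markers of other cells moved with some of these results. Of 8 fat cell markers, Pparg and Lpl passed the filter and rose at both lower frequencies (Pparg by 0.56 and 0.55, adjusted p = 0.00342 and 0.00263, and Lpl by 0.75 and 0.62, adjusted p = 5.37e-05 and 2.50e-04), and the list summed to 24.6 to 37.5 TPM in the controls. Its sum was 33.7 to 61.7 TPM at 1 Hz, 29.0 to 51.6 at 4 Hz, and 35.2 to 40.3 at 10 Hz. The other 6 markers, Adipoq, Fabp4, Plin1, Cidec, Lep, and Retn, did not pass the filter. The part of these markers in the results was not tested. Of 6 macrophage markers, Cd68 passed the filter and was not called at any frequency against the controls. Of 10 myotube markers, 0 were called at 1 and 10 Hz and 1 at 4 Hz, and 7 were lower at 10 Hz than at 4 Hz. Among cycling myoblast markers, 2 were higher and 1 lower at 1 Hz and 2 higher and 3 lower at 4 Hz. Of 8 fibroblast markers, 7 passed the filter, with 2 higher and 1 lower at both lower frequencies. Among all genes tested, 19.2% were called higher and 18.1% lower at 1 Hz, and 27.5% and 23.9% at 4 Hz. At 10 Hz 0.0376% were called against the controls, and 24.4% were lower at 10 Hz than at 4 Hz.

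The libraries were made with a directional kit, so the reads carry strand, but whether the counter took it into account is not given in the sources used here. All members but Tsc22d3 and Mt1 overlap a GENCODE gene on the opposite strand, such as Peds1 for Cebpb, Spidr for Cebpd, Teddm2 for Glul, and Gm45774 for Mt2, and a count made without strand would include reads from such a gene.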

How the data were processed

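RNA of 24 libraries, 6 per condition, was sequenced by the study as 50-base read pairs after poly(A) selection, with ribodepletion for low-input samples that the labels do not name. Per the labels and methods, the authors processed reads with nf-core/rnaseq (STAR and Salmon, Ensembl GRCm39); reads were also mapped with BWA-MEM, named beside quality metrics. The authors deposited the estimated counts per gene as salmon gave them, not normalized, and TPM per gene, divided by transcript length and scaled to 1000000 per library.

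Counts were rounded, filtered with filterByExpr (minimum count 10, minimum total 15), scaled by TMM, and tested in edgeR 4.0.16 (R 4.3.3) with a robust quasi-likelihood test. The 24 libraries shared 1 model, and p was adjusted by Benjamini-Hochberg over 13315 genes. The method was first tested on simulated data. CPM are TMM-scaled, and log2 CPM for r used a prior count of 2. The biological coefficient of variation was 14.8%. Depth and 6 libraries per condition limit the smallest detectable change.

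The members and lists were chosen with earlier results of these data known. All members are named, with, from each list, the 2 genes with the smallest p in each direction among those called at 4 Hz and at 1 Hz, every gene called at 10 Hz (none), and the 3 genes nearest to each of Fkbp5, Tsc22d3, Cebpd, and Mt1 by r, among genes averaging 1 or more in log2 CPM. Of the genes this rule names, 2 are not reported here. Alternatives were RLE (DESeq2 1.42.0) and upper-quartile factors, no filter, 50 counts in 6 libraries, DESeq2's Wald test, 2 groups per fit, a replicate block, limma 3.58.1 on log2(TPM + 1) and log2(TPM + 0.1) (genes reaching 1 TPM in 6 libraries), and omission of each library. Leaving out 4 libraries of high mitochondrial share was added after seeing the data. Positions are from GENCODE M39, which held 98.9% of the gene identifiers, and promoter windows from RefSeq.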

Additional observations from a re-analysis of the deposited data

Results flagged for a closer look

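The level of Cebpb in 1 Hz replicate 4 was 193 CPM, where the next library of that group had 148 and the lowest 122. The gap to its neighbour was 0.640 of the range of the group, above the 95% critical value of Dixon's test for 6 samples, 0.625. Such a gap was looked for in 36 groups of 6 libraries (9 genes in 4 conditions), and chance alone gives about 1 in 20. This library also had 3.97% of its counts from genes of the mitochondrial genome, and the part of that share in the value was not tested. Without the library, the log2(fold change) of Mt2 at 1 Hz was -0.03 and 3 members were called at 1 Hz.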

How the results depend on the processing

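At 4 Hz, Sgk1, Cebpd, and Fkbp5 kept their direction and their call under every alternative run, except that Fkbp5 did not pass the added threshold on fold change, and at 10 Hz 0 members were called under every one. Calls of the smaller changes were lost in several. The number of members called at 1 Hz, 6, was 2 with the added threshold on fold change, which 14.9% of all genes passed. It was also 2 without the 4 libraries of high mitochondrial share, where 30.8% of all genes were called. That count of 2 among the tested members is a smaller share than among all genes. The number was 3 without a filter and with the replicate block, 0 on both TPM scales, and 3 to 6 without 1 library. At 4 Hz, 7 became 2 with the threshold on fold change (25.1% of all genes) and 5 or 6 without 1 library. It became 3 on both TPM scales, beside 41.7% of all genes with log2(TPM + 1). Nr3c1 and Mt1 also lost their 4 Hz calls with RLE factors, without a filter, with the replicate block, with only the 2 groups in the fit, and with DESeq2. Between 10 and 1 Hz, 5 became 1 with the threshold (10.8% of all genes) and 2 with only the 2 groups in the fit (20.3%). Both counts are near the share of all genes. The number was 3 without a filter, 0 on both TPM scales, 3 without the 4 libraries (19.2% of all genes), and 2 to 6 without 1 library. Between 10 and 4 Hz, 5 became 2 with the threshold (21.2% of all genes). Between 4 and 1 Hz, 0 became 1 without the 4 libraries. The TPM scales shift all genes, as given above, and the causes of the other losses were not tested.

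Directions reversed as follows, none of them for a called value other than Nr3c1 and Mt1 at 4 Hz. With log2(TPM + 1) and log2(TPM + 0.1), the values at 1 Hz were -0.080 and -0.080 for Mt1 and -0.13 and -0.13 for Mt2. At 4 Hz they were -0.13 and -0.13 for Nr3c1, -0.24 and -0.24 for Cebpb, -0.080 and -0.080 for Mt1, and -0.097 and -0.097 for Mt2, and at 10 Hz -0.0029 and -0.0030 for Fkbp5. Between 10 and 4 Hz they were 0.18 and 0.18 for Nr3c1, 0.22 and 0.22 for Mt1, and 0.18 and 0.18 for Mt2, and Cebpb was called there at 0.34. With upper-quartile factors Cebpb was at 0.019 at 1 Hz and -0.019 between 10 and 4 Hz. Without the 4 libraries, Mt2 was at -0.044 at 1 Hz and Cebpb at -0.041 between 10 and 4 Hz. Leaving out 1 library gave ranges for Cebpb of -0.12 to 0.066 at 1 Hz, -0.0016 to 0.16 at 4 Hz, and -0.033 to 0.11 between 10 and 4 Hz, for Mt2 of -0.034 to 0.14 at 1 Hz, and at 10 Hz for Sgk1 of -0.18 to 0.066 and for Tsc22d3 of -0.11 to 0.014.

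Replicate numbers did not pair the libraries, as 3 of 36 pairs with the same number had an r of deviations over 0.1 and 1 of 24 libraries was closest to its own number. With the replicate block, 3 members were called at 1 Hz and Tsc22d3, Sgk1, and Glul had adjusted p of 0.0634, 0.0545, and 0.0560, and at 4 Hz Nr3c1 and Mt1 had 0.0671 and 0.0534. Over all genes the block gave 4613 calls at 1 Hz and 6647 at 4 Hz. At depths of 8052369 to 18159144 counts, Zbtb16 could not be compared.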
